A study of Mus musculus with 6 samples.

Results

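Axon guidance ligands and receptors steer growing axons, and in the retina they act on ganglion cell axons that leave through the optic nerve and on the neurites that later form the synaptic layers. Semaphorins signal through plexins, with neuropilins as coreceptors for the secreted class; ephrins are membrane-bound ligands of the Eph receptor tyrosine kinases; Slits signal through Robo receptors; netrin-1 signals through Dcc and the Unc5 receptors. The members were the protein-coding genes of the GENCODE M21 annotation whose symbols start with the prefixes of these families, and Dcc: 73 of 21951 coding genes. The prefixes also caught Unc50 and Unc5cl, which are not netrin receptors, and the netrin-G genes Ntng1 and Ntng2, whose products are anchored to the membrane and bind netrin-G ligands rather than Dcc.

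The data were counts of sequenced 3′ ends (PA-seq, in which an oligo(dT) primer captures the poly(A) junction) from retinas of C57BL/6J mice on 3 embryonic days (E13.5, E15.5 and E18.5) and 3 postnatal days (P0, P6 and P21). Each stage was represented by 1 sample. No genotype or treatment separated the stages, and how many animals made up a sample was not stated in the labels. Each stage had 2 columns of counts whose meaning was not stated; they were added, and p-values rest on the departure of 6 single libraries from a fitted line. Libraries held 3286158 to 4656153 tags. Of the 73 genes, 63 had at least 1 of their 132 poly(A) sites in the table of 32688 sites, and all 63 passed the filter on low counts. The other 10, namely Epha1, Ntn4, Ntn5, Plxna2, Plxnb3, Sema3d, Sema3g, Slit3, Unc5b and Unc5cl, had no site in the table used; the table's lowest site total was 41 tags, so a gene without a site may still be transcribed at a low level.

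Before the results, the libraries were checked against markers. Photoreceptor markers (10 genes) summed to 952, 2033, 1516, 2616, 5468 and 7463 CPM (tags per library scaled to an equal total, with TMM factors) from E13.5 to P21, and 9 of 10 rose. The columns of a stage did not match for this list, whose sum was 1629 CPM in the first and 174 CPM in the second column at E13.5. It was 3701 and 306 CPM at E15.5, and 4164 and 1036 CPM at P0. Calls lost in the second columns alone, and fitted changes there, are therefore given below. Retinal progenitor markers (10 genes) summed to 4136, 3033, 2807, 2698, 1696 and 1344 CPM. Ganglion cell markers (13 genes, of which 2 rose and 5 fell) summed to 2947, 2916, 2276, 2192, 1794 and 2080 CPM. Amacrine, bipolar and astrocyte markers summed to 1515, 1635 and 821 CPM at P21, against 284, 425 and 73.1 CPM at E13.5. Microglia markers stood at 188 against 201 CPM. The part of these cell types in the members' changes was not tested. Lens markers (10 genes, all detected in every library) summed to 886, 2359, 368, 2675, 141 and 544 CPM, highest at E15.5 and P0. At P21 the first and second columns also differed for lens (776 and 312 CPM) and progenitor markers (1679 and 1009 CPM). They were closer for ganglion cell markers (2127 and 2033 CPM). Mesenchymal markers (6 of 10 detected) summed to 71.5 CPM at P21, against 239 CPM at E13.5, and vascular markers (10 of 11) to 559 CPM, against 255 CPM. Pigment epithelium markers (7 of 9 detected, of which 3 rose) summed to 95.3, 84.7, 55.4, 71.8, 202 and 392 CPM from E13.5 to P21. The part of pigment epithelium in the members' changes was not tested. In bulk tissue, fewer cells of a type and less RNA per cell cannot be told apart.

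In abundance, tags of Ntng1, Ntng2, Unc5d, Epha7, Epha10, Nrp2, Sema3b, Sema6b and Sema7a became more frequent across development. Tags of Ntn1, Dcc, 3 ephrins, the ephrin-B receptors Ephb2 and Ephb4, Plxnd1 and Sema6c became less frequent. Of the 63 genes, 9 rose and 9 fell (edgeR quasi-likelihood test of stage order, Benjamini-Hochberg adjusted p of 0.05 or less over all 14403 genes), and 45 were not called. Each count was 14.3% of the members. Over all genes 17.0% rose and 13.1% fell, so the members' shares were near the background in both directions. The median fitted log2 change over the series, P21 over E13.5, was -0.06 for the members and -0.02 for all genes. In the second columns alone 9 rose and 7 fell, where 16.0% and 9.22% of all genes did. Members summed to 3638, 3741, 3839, 4051, 3365 and 2906 CPM, highest at P0 and lowest at P21. By stage of highest level, 13 members peaked at E13.5 and 8 at E15.5, while 7 did so at E18.5 and 15 at P0; later, 5 peaked at P6 and 15 at P21.

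**Figure D1:**
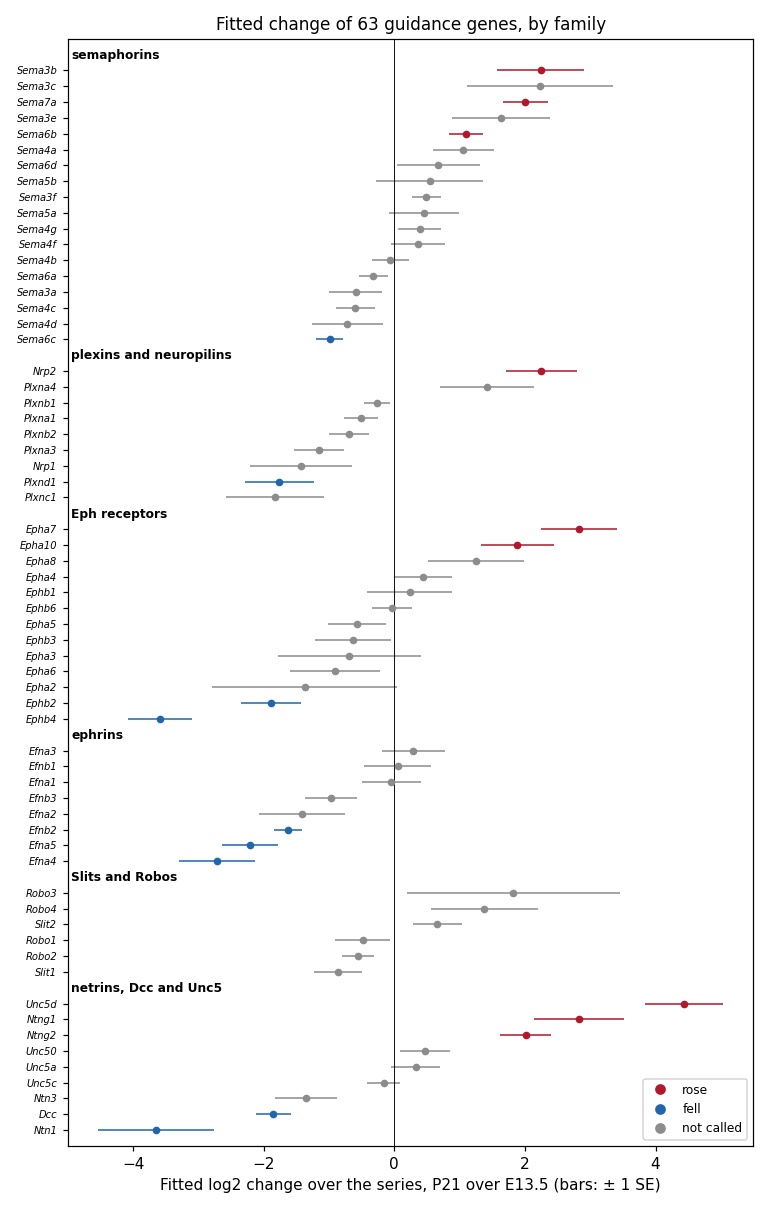
Fitted log2 change of the 63 genes over the 6 stages, P21 over E13.5, in 6 families; points are edgeR estimates, bars ± 1 standard error (SE), and colour marks the call. Called genes lie on both sides of 0, from Unc5d at 4.44 to Ntn1 at -3.65. The 8 ephrins and the 6 Slits and Robos have no rising call. These groups are too small to compare with the 17.0% of all genes that rose.

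Among the netrins, Dcc and Unc5 receptors, the classical pair and the netrin-Gs moved in opposite directions. Ntn1 (netrin-1, the secreted ligand) stood at 16.2, 4.49, 2.40, 3.15, 0.493 and 1.64 CPM from E13.5 to P21. Its level was highest at E13.5 and close to the floor of 3 tags (0.654 to 0.944 CPM by library) from P6 on; the fitted log2 change was -3.65 ± 0.89 (SE, edgeR adjusted p = 0.0211, -3.62 with adjusted p = 0.0646 in the second columns alone), and without E13.5 it was -1.80 (adjusted p = 0.228). Dcc, the attractive netrin receptor, had 97.8, 66.0, 48.2, 32.7, 35.0 and 25.8 CPM. It was lower at every step but that from P0 to P6 and changed by -1.85 ± 0.27 (adjusted p = 0.00464), and by -1.87 in the second columns alone.

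Ntng2 (netrin-G2) stood at 45.2, 105, 162, 161, 182 and 254 CPM and Ntng1 (netrin-G1) at 6.57, 30.9, 25.1, 31.2, 30.1 and 113 CPM. Ntng2 climbed through the series, whereas Ntng1 had a step between E13.5 and E15.5, a plateau to P6 and a second step at P21. Their fitted changes were 2.01 ± 0.40 (edgeR adjusted p = 0.0110) and 2.83 ± 0.69 (adjusted p = 0.0214), and 2.30 and 3.35 in the second columns alone; the Ntng1 call was lost without P21 (1.39, adjusted p = 0.282). Unc5d, a netrin receptor that also binds FLRT proteins, had 3, 4, 10, 9, 35 and 54 tags, or 0.822, 1.06, 2.18, 2.83, 8.63 and 14.8 CPM. It was at or near the floor before birth and highest at P21, with the largest fitted change of the 63 genes (4.44 ± 0.60, adjusted p = 0.00395, and 5.45 in the second columns alone); all 3 tags at E13.5 were in the first column. Unc5c (37.3 to 46.6 CPM) and Unc5a (26.9 to 50.2 CPM), repulsive netrin receptors, were the most abundant members of the group that were not called. Ntn3 ran from 7.55 to 20.3 CPM and Unc50 from 17.2 to 29.8 CPM; sites of Ntn3 also lie in Tbc1d24 on the same strand, so its values are uncertain.

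Among the ephrins 3 of 8 fell and none rose, where 13.1% of all genes fell and 17.0% rose. A family of 8 genes is too small to compare with these shares. The family sum stood at 571, 460, 382, 503, 309 and 185 CPM. Retinal progenitor markers, of which 6 of 10 fell, were also lowest at P21; their part in the falling members was not tested. Efna4 had 114, 101, 64.8, 83.1, 26.6 and 15.1 CPM and Efna5, a ligand known for its gradient in the superior colliculus, the target of ganglion cell axons, 32.3, 18.2, 10.9, 10.4, 7.40 and 6.85 CPM. Efnb2, a B-class ligand found in dorsal retina, stood at 111, 88.9, 70.7, 58.2, 51.5 and 32.3 CPM. Efna5 and Efnb2 were lower at each of the 5 steps, and Efna4 at every step but that from E18.5 to P0. The fitted log2 changes were -2.72 ± 0.58 for Efna4 (edgeR adjusted p = 0.0139), -2.21 ± 0.43 for Efna5 (0.0104) and -1.63 ± 0.21 for Efnb2 (0.00377). In the second columns alone they were -3.31, -3.07 and -1.87, all 3 called. At P21 Efna4 differed between columns, with 24.7 CPM in the first and 5.48 CPM in the second. Efnb3 (179, 135, 115, 174, 117 and 65.5 CPM) and Efna2 (84.6, 66.2, 59.5, 101, 43.2 and 20.6 CPM) were the most abundant ephrins that were not called. At P0, where lens markers were highest too, Efnb3 had a second maximum and Efna2 its highest level. Lens markers were also high at E15.5 (2359 CPM), where both genes were lower than at E13.5. The part of lens tissue was not tested. Without E15.5 and P0 the changes were -1.13 for Efnb3 (adjusted p = 0.0660) and -1.74 for Efna2 (adjusted p = 0.0433, edgeR). Efna1, Efna3 and Efnb1 stayed between 8.07 and 41.9 CPM and were not called.

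Of the 13 Eph receptors 2 rose and 2 fell, where 17.0% and 13.1% of all genes did. Ephb2, a receptor of ventral retina with the highest mean level of the 63 genes over the 6 stages, had 433, 398, 359.9, 383, 181 and 103 CPM. It was level up to P0 and lower at P6 and P21, a change of -1.89 ± 0.46 (edgeR adjusted p = 0.0215) that was not called without P21 (-0.92, adjusted p = 0.146) and was -2.27 in the second columns alone; at P21 its columns read 137 and 68.5 CPM. Ephb4, known as the receptor of venous endothelium for ephrin-B2, stood at 56.7, 21.9, 12.9, 13.8, 4.93 and 4.39 CPM. It was highest at E13.5, with 12.9 times its P21 level, and changed by -3.59 ± 0.49 (adjusted p = 0.00407, and -3.58 in the second columns alone). Beside it, 3 of 10 vascular markers rose and none fell, and 2 of 6 mesenchymal markers fell; their part in the Ephb4 result was not tested.

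Epha7 had 4.66, 5.01, 6.98, 5.67, 21.2 and 28.8 CPM, which separates P6 and P21 from the 4 earlier stages. Epha10, an Eph receptor without kinase activity, had 9.04, 23.2, 27.7, 40.6, 25.2 and 53.7 CPM. Their fitted changes were 2.83 ± 0.58 (edgeR adjusted p = 0.0128) and 1.89 ± 0.55 (adjusted p = 0.0385); in the second columns alone they were 3.19 and 2.04, both called.

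In the plexins and neuropilins 1 of 9 rose and 1 fell, where 17.0% and 13.1% of all genes did. Nrp2, a coreceptor of secreted semaphorins, stood at 4.38, 8.18, 8.94, 10.4, 25.4 and 18.4 CPM, and changed by 2.25 ± 0.55 (edgeR adjusted p = 0.0211, and 2.78 in the second columns alone). Plxnd1, the receptor of Sema3e that is also an endothelial gene, had 52.3, 43.3, 44.9, 47.2, 22.9 and 12.3 CPM. It was level to P0 and lower at P6 and P21 (-1.76 ± 0.53, adjusted p = 0.0413). The call was lost in 6 of 16 alternatives, among them the second columns alone (-1.82, adjusted p = 0.0613). Beside it, 3 of 10 vascular markers rose, and their part was not tested. The 2 most abundant plexins, the B-type receptors of class 4 semaphorins, were not called: Plxnb2 ranged from 155 CPM at P21 to 312 CPM at P0, and Plxnb1 from 174 CPM at P21 to 245 CPM at E15.5. Plxna1, Plxna3, Plxna4 and Plxnc1 were not called either, with peaks of 104, 140.1, 4.69 and 43.4 CPM.

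Of the 18 semaphorins, 3 rose and 1 fell, where 17.0% and 13.1% of all genes did. Their sum ran between 795 CPM at E13.5 and 1023 CPM at P0. Sema7a, the membrane-anchored semaphorin, had 17.0, 27.2, 22.9, 45.3, 62.4 and 63.3 CPM and changed by 2.01 ± 0.35 (edgeR adjusted p = 0.00744, and 1.90 in the second columns alone). The secreted Sema3b stayed between 4.93 and 9.24 CPM up to P6 and stood at 36.2 CPM at P21 (2.24 ± 0.67, adjusted p = 0.0403, and 2.87 in the second columns alone). That call rested on the last stage: without P21 the change was 0.51 (adjusted p = 0.592). Sema6b, a transmembrane class 6 ligand, had 30.7, 37.2, 43.6, 38.1, 54.5 and 71.8 CPM (1.10 ± 0.27, adjusted p = 0.0211), and Sema6c of the same class 134, 136, 104, 88.1, 69.3 and 78.7 CPM (-0.99 ± 0.21, adjusted p = 0.0140). These 2 class 6 genes thus moved in opposite directions, each also in the second columns alone (1.10 and -0.99). Sema6a (91.5 to 133 CPM) and Sema4d (70.3 to 179 CPM) were the most abundant semaphorins that were not called. The remaining 12 semaphorins peaked between 7.67 CPM (Sema3c) and 132 CPM (Sema3f, both at P21).

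**Figure D2:**
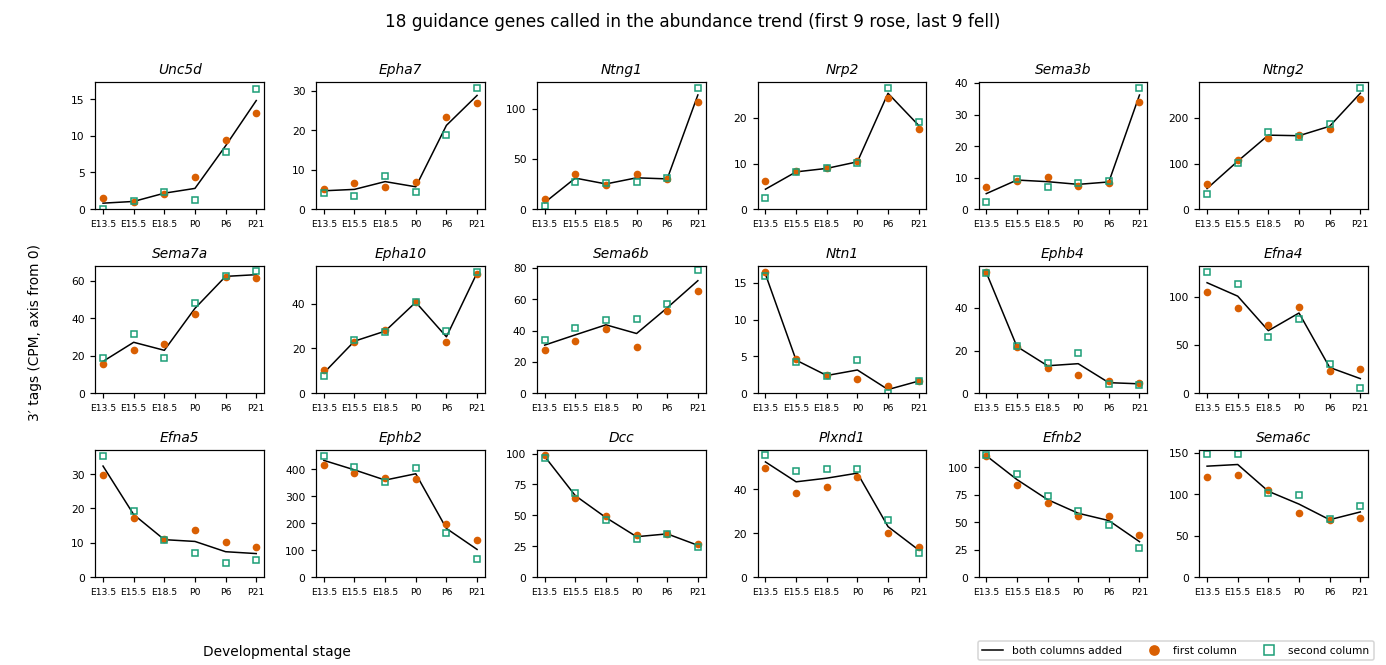
Level of the 18 called genes by stage, in CPM on axes that start at 0; the line gives the library with both columns added, circles the first and squares the second column. The first 9 panels rose and the last 9 fell; at P21 the columns of Efna4 (24.7 and 5.48 CPM) and Ephb2 (137 and 68.5 CPM) lie apart.

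None of the 6 Slit and Robo genes was called, where 30.1% of all genes were, a group too small to compare with that share. Robo2, the main Slit receptor of retinal ganglion cells, had 174, 208, 208, 190.1, 150.2 and 127 CPM, and Slit2, its ligand, 104, 90.0, 66.5, 75.5, 123 and 159.5 CPM. Slit2 was thus lowest at E18.5, where Robo2 was near its highest level; the fitted linear changes were 0.66 ± 0.37 (edgeR adjusted p = 0.216) and -0.55 ± 0.25 (adjusted p = 0.126). Robo1 ranged from 14.0 to 25.8 CPM, and the endothelial Robo4 from 1.89 CPM at P0 to 15.3 CPM at P21.

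Several receptors were highest in the middle of the series, which a line cannot show. In the test of curvature (a squared term of stage order) 0 of 14403 genes were called (0%) with both columns added, and 14.8% of all genes and 21 of 63 members had an unadjusted p under 0.05; DESeq2 was not run on this term. In the second columns alone 49 of 14380 genes were called (0.341%), of which 1 was a member: Epha8, at 24.7, 81.6, 124, 195, 159 and 80.6 CPM (adjusted p = 0.0357, edgeR). With both columns added Epha8 had 40.3, 87.3, 119.7, 184, 152 and 83.3 CPM (adjusted p = 0.0741), 4.58 times as much at P0 as at E13.5. The others named here were chosen after their values were seen, by the lowest unadjusted p. Sema5b, a repulsive transmembrane semaphorin that keeps inner retinal neurites in their layer, stood at 27.4, 43.5, 68.7, 79.6, 74.7 and 26.3 CPM, with E13.5 and P21 nearly level. Ephb1, the receptor of ganglion cell axons that stay on their own side at the chiasm, had 44.4, 80.8, 121, 123, 63.6 and 69.1 CPM, highest at E18.5 and P0.

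Robo3, the divergent Robo of commissural neurons, had 4.93, 13.2, 29.4, 33.0, 52.0 and 4.11 CPM. Its level was higher at each of the first 5 stages than at the one before and at P21 was back near that of E13.5, a 12.7-fold range with both columns added; at P6 the columns read 41.7 and 63.5 CPM. Ephb3 peaked at E18.5 with 116 CPM, against 52.0 CPM at E13.5 and 41.4 CPM at P21, as did Epha3 with 15.1, against 4.11 and 2.74 CPM. Epha2, singled out for its level at P0, had 19.7, 15.8, 15.1, 42.8, 10.1 and 2.19 CPM. The lens sum was 2675 CPM at P0, where Epha2 was highest, and 2359 CPM at E15.5. The part of lens tissue was not tested. Epha4, Epha5, Epha6 and Ephb6 had no adjusted p under 0.05 in either test.

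**Figure D3:**
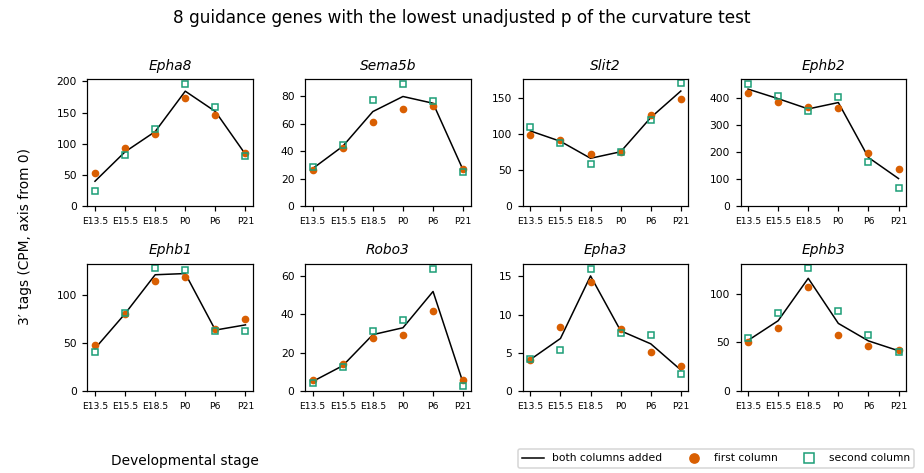
The 8 genes with the lowest unadjusted p of the curvature test, in CPM by stage on axes that start at 0, with the line for both columns added, circles for the first and squares for the second column. Epha8, Sema5b, Ephb1, Robo3, Epha3 and Ephb3 are highest between E18.5 and P6, while Slit2 is lowest at E18.5 and Ephb2 stays level up to P0.

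Poly(A) site choice was described next, since the position of the last site decides the 3′ untranslated region and, where sites end different last exons, the end of the protein. Of the 63 genes, 30 had 1 site and 33 more, up to 11 in Robo2. Last exons held 82.7% of the member tags (89.7% over all genes), the 1000 bases downstream 14.2% (7.73%), and introns 3.11% (2.28%). The downstream sites richest in tags were those of Ntng2 (2910 tags), Epha8 (2533), Sema3f (1968) and Ephb2 (1578). They lay 563, 1, 1 and 3 bases past an annotated end. In every gene with several sites the 2 richest in tags were compared, of which the 3′-most is called distal. The distal share rose in 1.57% and fell in 0.594% of 6059 genes (edgeR diffSpliceDGE, adjusted p of 0.05 or less), and 0 of the 33 member pairs were called. At an unadjusted p under 0.05 there were 6 member pairs (Sema4d, Ntng2, Robo2, Sema6a, Sema3a and Efnb2), where 15.8% of all pairs had one; these 6 were singled out after their values were seen. The median difference in distal share, P21 minus E13.5, was -0.24 points for the members and 2.48 points for all genes.

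The sites of 5 genes are shown because in the first 4 the annotated transcripts that end at them have different stop codons, while in Ephb2 they share one (Ephb2-202 encodes 986 residues and Ephb2-201 987). The 30 bases before each site are from the GENCODE M21 transcript, on its own strand, and capitals mark the poly(A) signal, AATAAA or its common variant ATTAAA. Positions are those of the site clusters in mm10.
Sema4d proximal, chr13:51701247-51701269, minus strand: tacccaAATAAAccagaagctttatcgttg
Sema4d distal, chr13:51685532-51685550, minus strand: tgccgtATTAAActgttttccagtgctgag
Robo2 proximal, chr16:73920203-73920222, minus strand: atgctgcAATAAAgaactccttttaaattc
Robo2 distal, chr16:73894355-73894378, minus strand: aAATAAAaccaaatcttgtaagtggacatt
Epha7 proximal, chr4:28947032-28947045, plus strand: tggtctttaaaAATAAAtcaaagaataagt
Epha7 distal, chr4:28967486-28967505, plus strand: gcttaaaatAATAAAcgagtctattagaca
Nrp2 proximal, chr1:62799294-62799311, plus strand: gaatgtAATAAAatgacgatatttttatac
Nrp2 distal, chr1:62818671-62818687, plus strand: agattactatttaAATAAAcattataccag
Ephb2 proximal, chr4:136653609-136653643, minus strand: ttgaatggaAATAAAtgctttagttataaa
Ephb2 distal, chr4:136647536-136647563, minus strand: ttttttccaaAATAAAtgtgaattgtaaaa
Of these 10 sites only the distal one of Sema4d has the variant signal. Over the 109 member sites with transcript sequence, AATAAA was in the 40 bases before 66.1% and ATTAAA, where AATAAA was not, before 14.7%; over 25253 sites of all genes these were 57.7% and 16.7% (transcript strand only).

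Sema4d, a ligand of B-type plexins, had the lowest unadjusted p of the member pairs. Its distal site held 12 of 402 tags at E13.5 (2.99%, 95% Wilson interval 1.72 to 5.14), and then 4.31%, 5.65% and 3.87% up to P0, 13.3% at P6 and 31.3% at P21 (86 of 275 tags, 26.1 to 37.0). The intervals of P6 and P21 lie above those of the 4 earlier stages. The proximal site ends Sema4d-201, with 861 residues; the distal site, 15715 bases further on, ends Sema4d-204, an incomplete model with a different stop codon. The test of stage order gave an unadjusted p of 0.00467 and an adjusted p of 0.102 (0.0628 in the second columns alone), so the distal share was not called as changed; adjusted p-values over the alternatives ran from 0.0289 to 0.719, and it was called with days after conception in place of stage order and without P0 (0.0299).

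In Ntng2 the proximal site of the pair is intronic, 51143 bases before the distal one. The distal share was 93.2, 90.9, 92.5, 90.4, 86.1 and 71.2%, level up to P0 and lowest at P21 (68.1 to 74.0). The unadjusted p was 0.00733 and the adjusted p 0.123 (edgeR). In Robo2 the proximal site was counted as intronic too, but lies 3 bases past the end of the incomplete model Robo2-205, which has its own stop codon. The distal share, at the end of Robo2-202 (1377 residues), was 70.6, 75.0, 78.1, 78.9, 80.6 and 90.2%, lowest at E13.5 and highest at P21. Sites of the gene still further 3′, with 284, 270 and 227 tags, are not in the pair. The adjusted p was 0.148 (edgeR), and 0.0435 with days after conception. For Sema3a the share was 90.9% at P21, against 67.7% at E13.5, and for Efnb2 59.3%, against 81.2% (adjusted p = 0.236 and 0.286, edgeR); in both, the sites lie in 1 last exon. The pair of Sema6a gave an adjusted p of 0.235.

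**Figure D4:**
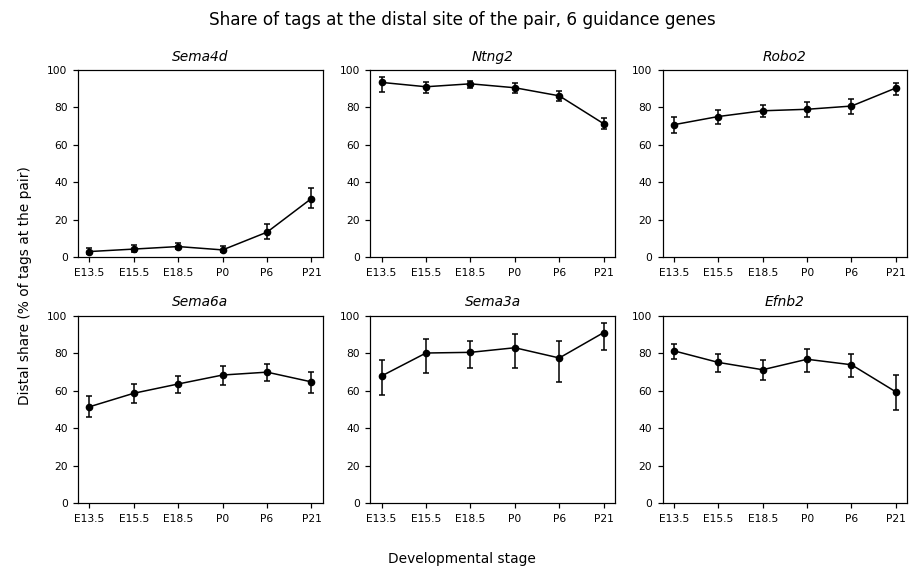
Share of tags at the distal site of the pair by stage for the 6 genes with an unadjusted p under 0.05, in percent on axes from 0 to 100; bars are 95% Wilson intervals, which cover counting error only. Sema4d is at 31.3% and Robo2 at 90.2% at P21, each its highest value, while Ntng2 (71.2%) and Efnb2 (59.3%) are at their lowest there.

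The abundance of Epha7 and Nrp2 rose, and their site shares were as follows. The proximal site of Epha7 ends the annotated transcript Epha7-202 (610 residues, which lacks the kinase domain of the full-length receptor) and the distal one Epha7-201 (998 residues). The distal share was 76.2% (80 of 105 tags, 67.2 to 83.3) at P21, against 94.1% (16 of 17 tags, 73.0 to 98.95) at E13.5; at P0 it was 100% (18 of 18 tags, 82.4 to 100). The adjusted p was 0.582 (edgeR). In Nrp2 the distal site, at the end of transcripts such as Nrp2-202 (926 residues), held 61.2 to 84.8% over the stages, and the proximal one ends Nrp2-205 (901 residues; adjusted p = 0.876, edgeR). Within the pair of Ephb2, whose level fell, the distal share was between 28.9 and 35.8%; 2 further sites of the gene, with 1556 and 653 tags, are not in the pair.

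Intronic tags, of which some members had many, were counted by gene. At least 10% of tags lay at intronic sites in 7 genes: Nrp1 (all 45 tags), Efna5 (48.6%), Robo2 (24.6%), Dcc (19.4%, at 4 sites), Ntng2 (16.4%), Sema3f (10.8%) and Epha5 (10.5%). How many of all genes reach 10% was not counted, so whether 7 is many cannot be told. Of the member sites 15.2% were intronic, against 9.74% of the sites of all genes. A site inside a gene but outside its annotated exons was counted as intronic, also when just past the end of a transcript. All 250 such tags of Sema3f lay 1 base past the ends of Sema3f-208 and Sema3f-212. Of the 997 in Robo2, 594 lay 3 bases past the end of Robo2-205. In Robo2 the share was 14.9% at P21, against 32.0% at E13.5, and in Ntng2 30.5%, against 8.49%. In each the Wilson intervals of these 2 stages do not overlap, but they cover counting error only. A change in the intronic share was not tested, and the site pairs of both genes were not called above. These shares depend on the rule of 1000 bases: with the sites past the gene end that are described next, they would be 4.74% in Nrp1, 17.8% in Efna5 and 16.0% in Ntng2. Priming of the oligo(dT) primer on A-rich stretches inside introns was not tested, since no genome sequence was used.

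For 7 genes the table held a site in no gene, more than 1000 and at most 10000 bases past the gene's end. In Nrp1, Slit1 and Efna5, described here, these sites held the most tags; in Efnb1, Ephb6, Ntng2 and Robo1 they held 44 to 71. After Nrp1, the coreceptor of Sema3a, the table held 904 tags at a site 2110 bases past the annotated gene end, after Slit1 1156 tags at 2433 bases, and after Efna5 562 tags at 1225 bases. These sites were set against the genes in an alternative chosen after the data were seen, in which sites in no gene and up to 10000 bases past a gene were added to it. Nrp1 then stood at 50.9, 51.9, 44.7, 31.5, 36.1 and 26.2 CPM, where by the rule it had 0.986 to 3.17 CPM, and its change of -0.97 ± 0.28 was called (edgeR adjusted p = 0.0356). Slit1 had 105, 106, 101, 92.5, 65.7 and 76.7 CPM in place of 25.5 to 53.8 CPM (-0.63 ± 0.22, adjusted p = 0.0672). Efna5 had 19.8 CPM at P21, against 78.5 CPM at E13.5, and was called (-1.91 ± 0.34, adjusted p = 0.00805). That these sites belong to the genes before them rests on distance and strand.

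**Figure D5:**
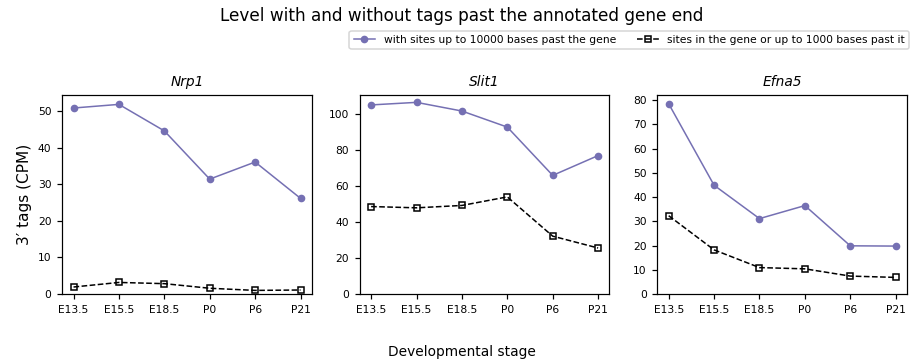
Level of Nrp1, Slit1 and Efna5 by stage in CPM on axes that start at 0; circles include sites up to 10000 bases past the gene, squares those in the gene or up to 1000 bases past it. Nrp1 lies between 26.2 and 51.9 CPM with the added sites and at or below 3.17 CPM without them.

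Genes further along the pathway were counted as 2 lists. Of 56 cytoplasmic transducers and cytoskeletal effectors tested, 4 rose and 13 fell (7.14% and 23.2%, against 17.0% and 13.1% of all genes), with a median log2 change of -0.37. Among those that rose were the FERM-domain exchange factor Farp2 (2.57 ± 0.48) and the Rac exchange factor Dock3 (1.42 ± 0.26). The largest falls were in Mical1, the actin-oxidising effector of semaphorin signalling (-1.997 ± 0.498), the adaptor Nck2 (-1.58 ± 0.34) and the exchange factor Vav2 (-1.38 ± 0.20). Of 31 other guidance cues and coreceptors, 6 rose and 7 fell (19.4% and 22.6%), with a median of -0.41. Cntn2, an adhesion molecule of early axons, had 50.2 CPM at P21, against 314 CPM at E13.5 (-3.43 ± 0.71). Draxin, a secreted Dcc ligand, had 15.1 CPM at P21, against 163 CPM at E13.5 (-3.40 ± 0.48), and Zic2, the transcription factor of ipsilateral ganglion cells, 16.4 against 172 CPM (-3.18 ± 0.53). Dscaml1 (2.89 ± 0.45), Cntn4 (2.66 ± 0.70) and Cntn1 (1.48 ± 0.35), adhesion molecules of retinal neurites, rose. The adjusted p-values of the genes named from these lists lay between 0.00446 and 0.0277 (edgeR).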

How the data were processed

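Per the file headers, the authors deposited counts of tags per poly(A) site cluster in 12 columns, 2 per stage, and 1 enrichment score per site, which was not used. The aligner was BWA 0.7.5a-r405 and the genome build mm10, per the submitters' processing notes. The clustering and filtering of sites, whether duplicates were removed, and what the columns of a stage stand for were not given in the sources used here. Per the labels' protocols, RNA was primed with an anchored oligo(dT) primer and libraries kept the strand. Whether a sample came from 1 or several animals was not stated.

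A site was given to a GENCODE M21 gene on its strand if its 3′ edge fell inside that gene or up to 1000 bases past its end, which took 96.3 to 97.97% of a library's tags; mitochondrial tags were left out of tests. Tags were summed per gene, and the 2 columns of a stage were added. Abundance was tested with edgeR 4.0.16 in R 4.3.3 (TMM, genes kept from 1 CPM in 2 or more libraries, quasi-likelihood F test of stage order from 1 to 6, 4 residual degrees of freedom, 3 with the squared term). Fitted changes cover the whole series; their SE is the absolute change over the square root of F. Site pairs, in which each site held 5% or more of a gene's tags and both together averaged 20 tags or more, were tested with diffSpliceDGE. Both fits were also run on simulated counts with a fixed spread and changes linear in stage order. Those counts held no steps, mid-series peaks or differences between columns, so they cannot support single calls. Intervals and floors of 3 tags cover counting error only, since PCR reads are not independent molecules. Alternatives were DESeq2 1.42.0, other scalings, filters, covariates and site sets, each column alone, and leaving out each stage.

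Members, lists and tests were chosen with earlier results of these data known. Named were the called members, the 2 most abundant uncalled members of each family, members with at least 10% and at least 20 of their tags in introns, and 3 called genes each way per pathway list with a mean of at least 20 CPM, of which 1 is not reported here. Sequences were not printed for genes of mouse chromosome 18.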

Additional observations from a re-analysis of the deposited data

How the results depend on the processing

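No paired analysis was possible because each stage had 1 sample. The 18 called members kept their direction in all 16 alternatives. Dcc, Efnb2, Ephb4 and Unc5d were called in each. Over the 18 genes and 16 alternatives, 46 calls were lost, of which 9 each without E13.5 and without P21, 7 with days after conception in place of stage order, and 0 with DESeq2, with RLE size factors or without the filter. Plxnd1, Sema3b and Epha10 each lost the call in 6 alternatives. The count of called members was 10 to 21 when 1 stage was left out, with 4 to 9 rising and 6 to 12 falling, against 18 (9 and 9) over all stages; with days after conception 14 fell. Without E13.5, 13.5% and without P21, 9.13% of all genes were called, against 30.1%. With E15.5 and P0, the libraries with most lens tags, left out, which was chosen after seeing the data, 14 were called. The curvature count was 1 in the second columns alone and 0 in the other alternatives run. The site choice count was 2 (Sema4d and Robo2) with days after conception and 0 to 1 when 1 stage was left out (1, Sema4d, without P0). Uncalled genes whose fitted change reversed were Ephb1 (-0.25 with days after conception, -0.59 without E13.5, against 0.23), Unc5c (0.036 in the second columns alone, 0.011 without E13.5), Plxnb1 (0.073), Sema6a (0.056) and Unc5a (-0.13), these 3 without P21; the cause was not tested. With 1 stage left out they ranged from -0.59 to 0.76 (Ephb1), -0.28 to 0.011 (Unc5c), -0.39 to 0.073 (Plxnb1), -0.44 to 0.056 (Sema6a) and -0.13 to 0.85 (Unc5a). Depth limits members near the floor, such as Unc5d and Ntn1 at single stages.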
